A study of Mus musculus with 50 samples.

Results

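A set of 7931 chromatin regions had an open-chromatin peak in motor neurons (MNs) of the E10.5 mouse spinal cord and no called peak at any later age sampled. They were chosen by the peak calls of the ATAC-seq libraries alone. Each is an interval of E10.5 replicate 2 that overlapped a peak of E10.5 replicate 1 by 1 bp or more and overlapped no peak of any library of E13.5, P4, P13, P21, P56 or 2 years. They made up 7931 of the 97002 intervals of that library and of the 47710 intervals found in both E10.5 libraries. The other 39779 replicated intervals overlapped a later peak and are called retained peaks here.

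The study followed spinal MNs from birth to old age in vivo and in culture, by ATAC-seq, which marks open chromatin by transposase insertion, and by RNA-seq. E10.5 MNs were whole cells sorted for high GFP from pooled embryos heterozygous for Hb9-GFP, in which GFP follows the MN gene Mnx1. MNs from E13.5 to 2 years were nuclei of pooled Chat-Cre;SUN1-GFP mice, in which Cre of the cholinergic gene Chat switches on a GFP-tagged nuclear envelope protein; they were sorted for ATAC-seq and taken by affinity purification for RNA-seq. Cultured MNs were differentiated from Chat-Cre;SUN1-GFP embryonic stem cells and profiled at day in vitro 0 (DIV0), before co-culture with cortical astrocytes, and at DIV7 and DIV28, the last also with 1 uM tetrodotoxin (TTX), which blocks sodium channels. There were 2 ATAC-seq libraries for every age and culture condition, and 3 RNA-seq libraries at E10.5, 2 at E13.5 and 3 at P21. Between E10.5 and E13.5 the age, the reporter line, the sorting of whole cells against nuclei and the ATAC-seq protocol changed together. E10.5 cells were processed by an earlier protocol and the nuclei by Omni-ATAC. The parts of these differences in the absence of a later peak cannot be told apart.

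At E10.5 the ventral cord holds dividing progenitors and MNs that have just left the cell cycle. Proneural bHLH factors such as Neurog2, which bind E-boxes, and SoxB and SoxC factors, which bind a shared core, act in this transition. LIM homeodomain factors such as Isl1 and Lhx3 then fix MN identity, Hox factors with Pbx and Meis partners set the subtype, and retinoid receptors respond to retinoic acid from the somites. Growing axons are steered by Robo, Dcc, Eph and semaphorin families. Enhancers are short stretches of open chromatin, mostly far from start sites, where such factors bind.

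Windows of 7 of these regions reached 100 bases to either side of the summit, the highest point of the called peak. They were read from the plus strand of the RefSeq sequence of GRCm38.p6 (mm10). The first 4 were among the 10 regions with the highest -log10 p in replicate 2, the Neurod4 and Ebf2 regions lay near genes of neuronal differentiation, and the last is a repeat. Capitals mark matches on either strand to the E-boxes CAGCTG and CAGATG and CATATG, to the homeodomain core TAATTA, to the Onecut cores ATCGAT and ATCAAT, to the Sox cores CCATTGT and CCTTTGT, and to the Hox-Pbx cores TGATTTAT and TGATTGAT.
chr4 member, chr4:71765126-71765326: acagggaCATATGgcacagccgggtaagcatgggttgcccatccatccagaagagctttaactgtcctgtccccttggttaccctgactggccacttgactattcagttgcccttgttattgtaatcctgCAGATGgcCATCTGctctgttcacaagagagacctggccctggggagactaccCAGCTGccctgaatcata
chr10 member, chr10:51257736-51257936: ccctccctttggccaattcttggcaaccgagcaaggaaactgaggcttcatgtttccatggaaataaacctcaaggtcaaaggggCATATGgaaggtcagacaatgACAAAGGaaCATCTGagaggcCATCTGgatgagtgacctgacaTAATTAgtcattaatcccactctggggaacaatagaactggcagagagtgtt
Robo1 downstream member, chr16:73117405-73117605: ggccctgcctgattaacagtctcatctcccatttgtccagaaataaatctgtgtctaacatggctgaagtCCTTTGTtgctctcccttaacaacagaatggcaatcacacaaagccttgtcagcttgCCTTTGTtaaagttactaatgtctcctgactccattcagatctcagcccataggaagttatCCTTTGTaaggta
Robo1 intron member, chr16:72788064-72788264: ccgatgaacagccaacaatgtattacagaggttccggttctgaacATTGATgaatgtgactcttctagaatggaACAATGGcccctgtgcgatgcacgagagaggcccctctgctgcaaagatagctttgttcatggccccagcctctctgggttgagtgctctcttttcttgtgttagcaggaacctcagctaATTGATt
Neurod4 member, chr10:130256400-130256600: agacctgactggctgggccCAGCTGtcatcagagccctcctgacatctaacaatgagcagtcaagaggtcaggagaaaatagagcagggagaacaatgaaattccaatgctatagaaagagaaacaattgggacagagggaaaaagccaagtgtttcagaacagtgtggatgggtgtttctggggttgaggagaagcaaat
Ebf2 member, chr14:67242086-67242286: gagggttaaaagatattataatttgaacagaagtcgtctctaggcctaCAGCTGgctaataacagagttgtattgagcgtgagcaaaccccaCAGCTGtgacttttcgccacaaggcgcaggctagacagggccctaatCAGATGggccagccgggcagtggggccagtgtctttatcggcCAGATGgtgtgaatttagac
Foxn2 repeat member, chr17:88454395-88454595: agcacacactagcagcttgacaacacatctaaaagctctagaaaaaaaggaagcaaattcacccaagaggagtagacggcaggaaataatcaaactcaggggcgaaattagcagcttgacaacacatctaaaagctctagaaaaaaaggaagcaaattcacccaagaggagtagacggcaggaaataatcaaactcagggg

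The chr4 window held 4 E-boxes and no other marked core. The chr10 window held 5 matches, of the E-box, homeodomain and Sox kinds. The Robo1 downstream window held the same Sox core 3 times. The Robo1 intron window held 2 Onecut cores and 1 Sox core, the Neurod4 window 1 E-box and the Ebf2 window 4 E-boxes, and the Foxn2 window held no match and lay wholly in lower case of the reference, the mark of repeats.

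The highest member was a 901 bp intergenic region at chr4:71764792-71765692, 7261 bp from the start of Gm11232. Its fold enrichment over the local background, as the authors' peak caller gave it, was 14.1 in replicate 2 and 8.27 in replicate 1, with -log10 p of 184 and 35.7. In culture it overlapped a peak in both DIV0 libraries, in 1 of 2 DIV7 libraries and in 1 of 2 TTX libraries. The member at chr10:51257394-51258439, 19007 bp from the pseudogene Gm5040, had fold enrichments of 14.3 and 10.2 and a peak in both DIV0 and both DIV7 libraries. A pair of regions by Robo1, the receptor gene for the Slit repellents, stood at 13.9 and 7.60 (chr16:73117183-73117868, in an intron of the noncoding 4930500H12Rik) and at 13.9 and 7.18 (chr16:72787948-72788572, in an intron). Each of them overlapped a peak in 1 of the 2 DIV0 libraries and in no later culture library. These values belong to the calls that chose the regions and are a description.

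Of the 10 highest members, 4 were repeats. They were the narrow peaks nearest to Foxn2, AC158763.1, 4931413I07Rik and Dnah7c, 193 to 237 bp wide, with fold enrichments of 28.4 to 33.0 in replicate 2 and 19.2 to 32.1 in replicate 1. Their windows were 100% repeat-masked, the 31 bases at each summit occurred 1 time in the genome, and none of the 4 overlapped a culture peak. The Foxn2 and 4931413I07Rik windows each held a long stretch 2 times, and their 31 summit bases lay across or between the copies. The count of 1 therefore does not show that the rest of these windows was single-copy. Another repeat, in an intron of the Notch ligand gene Jag1, had 2713 copies of these 31 bases. Repeats were frequent over the whole set: 2046 members (25.8%) had a summit window over 50% masked, against 4.97% of retained peaks and 7.91% of all E10.5 replicate 2 peaks. The 31 bases at the summit occurred at least 2 times in the genome in exact copy for 17.0% of members and 4.78% of retained peaks, and at least 100 times for 612 members. Of the 61 members with a fold enrichment of 15 or more, 54 were masked, and their median width was 264 bp. The methods state no filter on mapping quality, and the part of multiply mapping reads in these peaks was not tested.

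**Figure D1:**
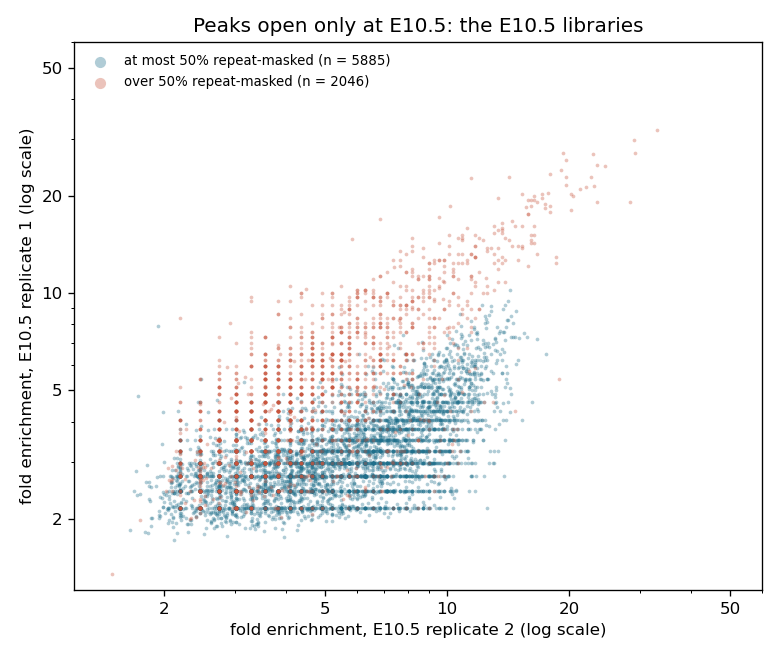
Fold enrichment of the 7931 regions in E10.5 replicate 2 (x axis) and in the overlapping peak of E10.5 replicate 1 (y axis), both on log scales. Each point is 1 region, blue where the summit window is at most 50% repeat-masked (5885) and red where it is more (2046). Masked regions lie higher in replicate 1, with a median of 4.32 against 2.97, and hold nearly all points beyond 15.

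Members were weaker than retained peaks. Their median fold enrichment in replicate 2 was 4.91 (quartiles 3.55 and 7.18), against 7.04 (4.64 and 9.93) for retained peaks, and their median width was 418 bp against 702 bp. In replicate 1 the medians were 3.02 and 3.67. A q-value under 0.05 was reached by 7413 members (93.5%) and by 97.7% of retained peaks. The library of replicate 1 was the weaker of the pair, with 29426 of 80386 intervals at a -log10 p of 5 or more, against 63151 of 97002 in replicate 2. Unmasked members, 5885 in all, had a median fold enrichment of 5.18.

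The edge of the set was followed on both sides. The nearest later peak lay at a median distance of 2416 bp, over 500 bp for 6744 members and over 10 kb for 1051. The 115 members with a later peak within 50 bp had a median fold enrichment of 4.64, and the 155 retained peaks that later peaks covered by only 1 to 50 bp had 3.90. The 2189 retained peaks found in just 1 of the 12 later libraries had 5.18, close to the members, and the 22509 found in all 12 had 8.38. Of all replicated E10.5 peaks, 6.21% were found again at E13.5 and not after birth and 8.51% only after birth.

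Most members were distal, that is, far from start sites. The summit lay over 2 kb from any annotated start site for 7051 members (88.9%), for 54.3% of retained peaks and for 73.5% of all replicate 2 peaks. The median distance was 17334 bp, and 3209 members (40.5%) lay in introns, 4345 (54.8%) between genes and 377 (4.75%) in exons, where retained peaks had 26.1%. Masked members were the most distal, at 95.6%. Another member lay within 10 kb for 14.2% of members. The median G+C content of the summit windows was 45.3% for members, 55.2% for retained peaks and 49.3% for distal retained peaks.

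Sox cores stood at higher shares in members than in retained peaks. Within 100 bp of the summit, CCTTTGT on either strand was found in 14.99% of members (95% Wilson interval 14.2 to 15.8), 10.3% of distal retained peaks and 8.78% of all replicate 2 peaks, and in 4.10% of windows 2 kb to either side of the members. CCATTGT was found in 11.8%, 6.44%, 5.97% and 3.62% in the same order. Without the masked members the shares were 17.5% and 13.2%. Shares are given over windows and carry no test, since regions of 1 library are not replicates, and a match is a string of letters that many related factors can share.

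The nuclear receptor core AGGTCA was in 20.4% of members and 15.6% of distal retained peaks, with 15.1% of all replicate 2 peaks and 11.2% beside the members. Among E-boxes, CAGATG stood at 25.6% of members and 23.7% of distal retained peaks, and CAGCTG, the form bound by many proneural factors, at 14.4% and 19.7%. In unmasked members CAGCTG stood at 18.1% and in masked ones at 3.86%, and AGGTCA at 23.7% and 10.8%. Over all replicate 2 peaks CAGATG and CAGCTG stood at 21.3% and 16.7%, and beside the members at 14.9% and 7.26%. CATATG stood at 6.09% of members and 3.86% of distal retained peaks, with 6.07% beside the members and 4.29% over all peaks. The POU octamer ATGCAAAT stood at 3.63% against 2.38% of distal retained peaks, 2.60% of all peaks and 1.77% beside the members, and was more frequent in masked members, 5.08%, than in unmasked ones, 3.13%.

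Over all members, masked ones included, cores of the factors that fix MN identity and subtype differed less between the sets or stood lower in members. The homeodomain core TAATTA was in 6.61% of members, 7.49% of distal retained peaks, 7.80% of all peaks and 6.82% of the windows beside them. The Onecut core ATCAAT was in 12.1%, 11.9%, 12.4% and 9.98%, and ATCGAT in 1.41%, 1.16%, 0.985% and 1.24%, with 0.731% in unmasked members. For Hox-Pbx, TGATTTAT was in 2.96% of members and 4.02% of distal retained peaks (3.36% of all peaks, 1.13% beside members), and TGATTGAT, whose reverse strand holds the Onecut core, in 2.13% and 1.91% (1.98% and 0.977%). The Meis core TGACAG was in 17.2%, 19.6%, 17.9% and 12.9%. In unmasked members TAATTA stood at 7.88%, ATCAAT at 12.97%, TGATTGAT at 2.58% and TGACAG at 20.02%, each above the distal retained peaks. TGATTTAT, at 3.43%, and ATCGAT stood below them. The distal retained peaks were not split by masking here, and 8.39% of them were masked.

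Some motifs were scarce in members. The core of CTCF, the factor that anchors chromatin loops, was in 0.757% of members and 10.8% of distal retained peaks, with 5.60% of all peaks and 0.265% beside the members. The full NFI site, a pair of inverted cores, was in 0.252% of members, as rare as beside them (0.290%), and in 0.778% of distal retained peaks and 0.602% of all peaks. The single NFI core TTGGCA was in 9.72% of members and 10.7% of distal retained peaks (9.76% of all, 9.89% beside). The Sp core GGGCGG, common at promoters, was in 5.74% of members, 9.77% of distal retained peaks, 14.7% of all peaks and 2.38% beside the members. The Ebf core CCCNNGGGA (4.30% and 5.43%, with 5.49% and 2.21%), the AP-1 core TGANTCA (4.97% and 6.14%, with 5.69% and 5.70%), the ETS core CCGGAAG (1.05% and 1.44%, with 2.66% and 0.744%), the GATA core AGATAA (10.3% and 9.28%, with 9.43% and 12.8%) and the Mef2 site (2.72% and 1.99%, with 2.16% and 4.56%) complete the motifs searched, in the order members, distal retained peaks, all peaks and windows beside the members. In unmasked members Mef2 stood at 1.75%, below the distal retained peaks.

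**Figure D2:**
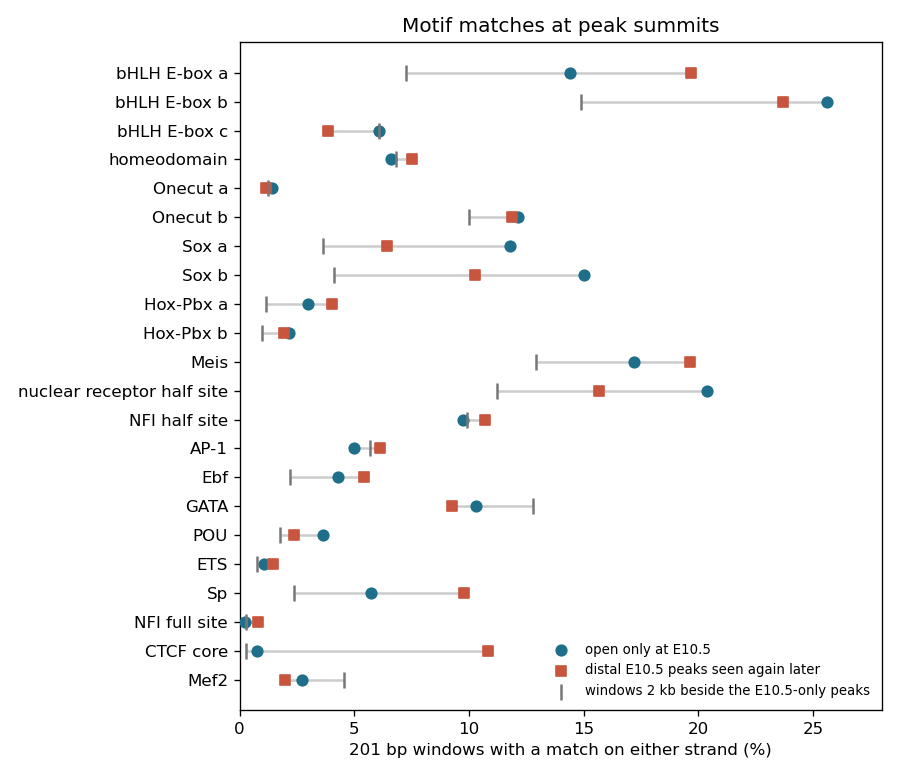
Share of windows of 100 bp to either side of the summit with a match to each motif. Circles are the 7931 regions open only at E10.5, squares the 21605 distal E10.5 peaks seen again later, and bars the 15862 windows 2 kb beside the regions. The letters a, b and c number the cores of a family in the order given in the text. Circles lie to the right of squares for both Sox cores and the nuclear receptor core, and far to the left for CTCF.

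The position of matches was followed for 4 motifs. In unmasked members, CCTTTGT was found in 5.74% and 5.62% of the 50 bp bins on either side of the summit, and in 1.00% and 1.17% of the outermost bins, near 500 bp. In unmasked distal retained peaks the central bins held 3.24% and 3.37%. AGGTCA rose from 2.91% in an outermost bin to 8.55% beside the summit in members, and reached 4.99% in retained peaks. The CTCF core was in 0.374% and 0.272% of the central bins of members and in 5.40% and 4.92% of those of retained peaks.

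**Figure D3:**
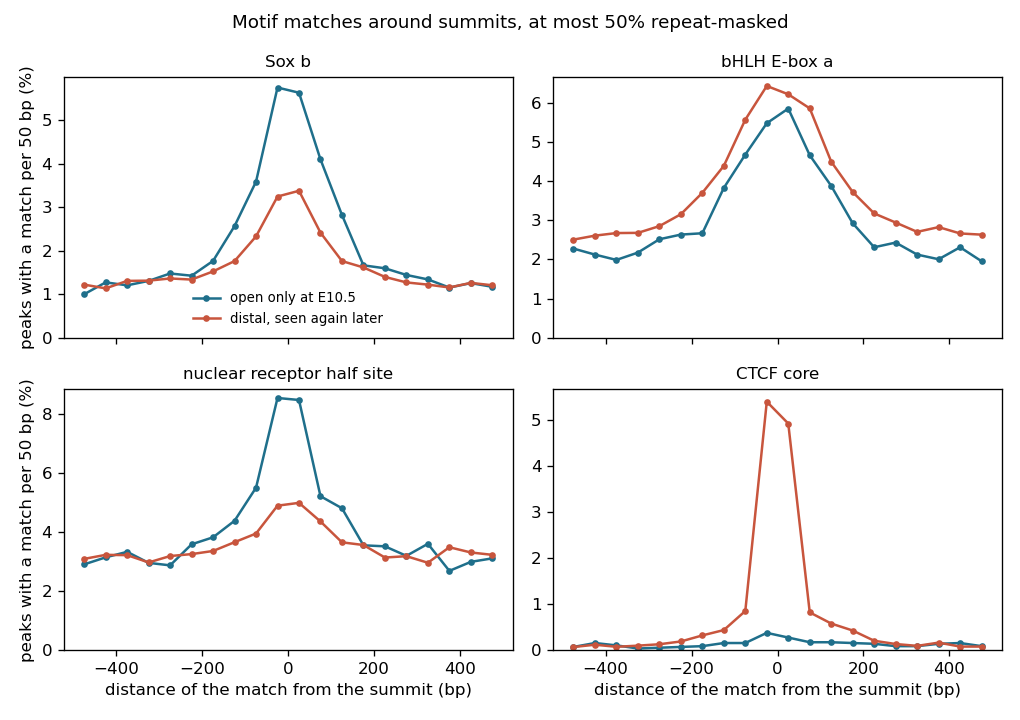
Share of peaks with a match in each 50 bp bin by distance from the summit, for 4 motifs and for summits at most 50% repeat-masked. Blue is open only at E10.5 and red is distal and seen again later. Both Sox b (CCTTTGT) and the nuclear receptor core peak at 0 bp and stand higher in blue, E-box a (CAGCTG) is a little lower in blue, and the CTCF core peaks in red, with a far smaller rise in blue.

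The choice of regions did not use the culture libraries. Retained peaks, however, were chosen for a peak in some later library and members for a peak in none. A lower share of members in further libraries was therefore likely from the choice itself. Culture nuclei also carried the reporter of the later ages. Peaks of the culture libraries overlapped 18.1% and 14.3% of members in the DIV0 libraries, 3.49% and 5.67% at DIV7, 7.58% and 4.50% at DIV28 and 7.24% and 5.21% at DIV28 with TTX. Retained peaks were overlapped in 80.9% and 78.1%, 62.3% and 69.0%, 70.4% and 63.6%, and 71.5% and 65.4%. Every library found a smaller share of members than of retained peaks, by 61.9 percentage points on average (SD 2.197, n = 8, exact sign-flip permutation test, two-sided, p = 0.00781, the smallest that 8 libraries allow). The 8 libraries are of related conditions of the same culture system, and the test does not separate the difference from the choice of regions. The gap was present in every range of fold enrichment. From a fold enrichment of 10 upwards, DIV0 libraries found 23.9% ± 1.11 of members (SD, n = 2) and 90.2% ± 0.754 of retained peaks, and below 4 they found 10.6% ± 2.37 and 58.6% ± 3.72. Among distal peaks the DIV0 shares were 15.3% ± 2.54 and 67.9% ± 2.97. With only the 50000 highest peaks of each culture library, the mean difference over the 8 libraries was -48.2 points.

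Members and retained peaks both had their highest share at DIV0. For members the mean share was 16.2% ± 2.65 (SD, n = 2) at DIV0, 4.58% ± 1.54 at DIV7 and 6.04% ± 2.18 at DIV28, and the DIV0 libraries did not overlap the others. For retained peaks it was 79.5% ± 2.02, 65.6% ± 4.76 and 67.0% ± 4.84. With 2 libraries each the exact permutation test cannot reach 0.05, and each comparison of members with DIV0 gave the smallest p it allows (differences of -11.6 points for DIV7 and -10.2 for DIV28). TTX made a difference of 0.183 percentage points at DIV28 (exact permutation p = 1). The DIV28 libraries had more peaks than the DIV0 libraries (152667 and 224328 against 80818 and 94520), and the part of depth was not tested. Masked members were almost absent from culture, with 1.83% ± 0.104 found at DIV0, and unmasked members stood at 21.2% ± 3.53.

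A group of 891 members (11.2%) was found in both DIV0 libraries, and 647 of these were in no DIV7 or DIV28 library without TTX. In all, 2429 members were found in some culture library, 17 in all 8, and 5502 (69.4%) in none. The 891 had a higher fold enrichment than the 6253 found in neither DIV0 library, with medians of 6.12 and 4.64, with 2.58% against 31.9% masked and 82.6% against 90.04% distal. AGGTCA was in 36.9% of windows of the 891 and 17.0% of the 6253, CAGCTG in 27.6% and 11.5%, and ATCAAT in 17.8% and 10.99%. With masked members included, the Sox core CCTTTGT did not follow this split, with 14.5% and 14.6%. CCATTGT was lower in the 891, with 9.20% and 12.2%. These shares mix the split with masking. Over all members, CCTTTGT was in 7.82% of masked and 17.5% of unmasked ones, AGGTCA in 10.8% and 23.7%, and CAGCTG in 3.86% and 18.1%. The split among unmasked members alone was not tested.

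**Figure D4:**
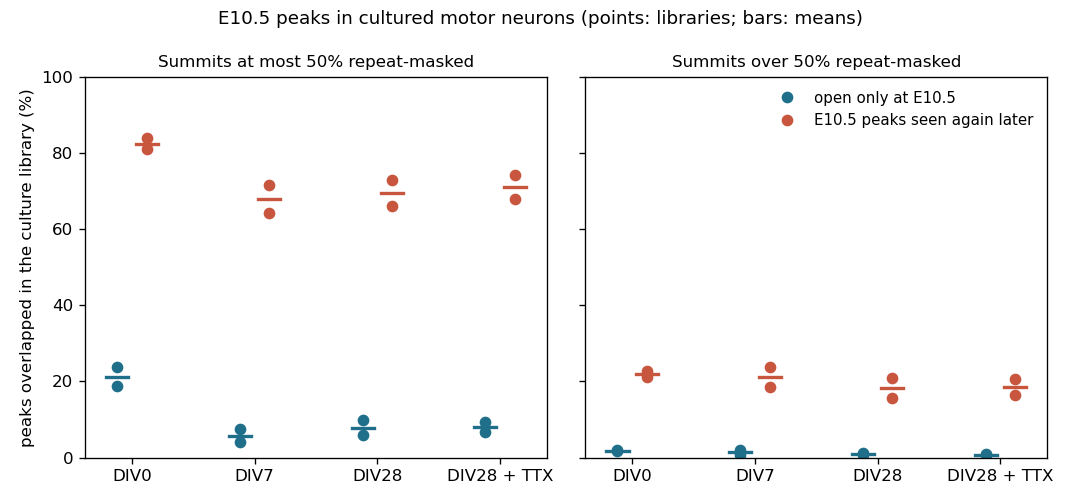
Share of E10.5 peaks overlapped by a peak of each culture library, for summits at most 50% (left) and over 50% (right) repeat-masked. Points are the 2 libraries of a condition and bars their means, blue for regions open only at E10.5 and red for E10.5 peaks seen again later. Blue lies far below red in every condition and is highest at DIV0 on the left, and near 0 on the right.

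Each member was assigned to the gene with the nearest annotated start site, which gave 6033 genes, 4752 of them with 1 member and 48 with 5 or more. The nearest gene is not shown to be the one a region acts on. Among axon guidance genes, 17 of 34 had members, 50 in all (0.630% of members), more than in any other list examined, and the same list also held 208 retained peaks (0.523%). Robo1 had 8, Robo2 and the netrin receptor gene Dcc 6 each, and Efna5, an ephrin ligand, 5. When only protein-coding start sites were used, Robo1 and Robo2 had 19 each, the adhesion phosphatase gene Ptprd and the ephrin receptor gene Epha7 21 each, and Dcc 13. The members of Robo1 then spanned 1781 kb.

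Progenitor and proneural factors had 26 members (0.328%) at 12 of 28 genes, and 61 retained peaks (0.153%). Neurog2 and Neurod4, bHLH factors of neuronal commitment, and Pax6, which patterns progenitors, had 4 each, Dbx1 3, and Neurog1, Dbx2 and Cbfa2t3 2 each. The strongest of them, at chr10:130256248-130256861 and 23740 bp from the start of Neurod4, had fold enrichments of 13.2 and 7.26 and overlapped no culture peak. By nearest start site of any gene, Pax3 had the most members. It encodes a factor of dorsal progenitors, neural crest and somites, and its 9 members, none of them masked, had fold enrichments of 2.23 to 9.33.

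By nearest start site, the list of MN selector factors held like shares of members and retained peaks, though with few members. Of 13 MN selector factors 3 had members, 7 in all (0.0883% of members, beside 36 or 0.0905% of retained peaks), of which 3 at Lmo3. By protein-coding start sites 8 of the 13 had 33 members, and the retained peaks of the list are not given for that assignment. The Onecut and Ebf list had 4 at 4 of 7 genes (0.0504% of members, 0.0729% of retained peaks). Among them were an intron region of Onecut1 at chr9:74860513-74860977 (fold enrichment 6.81 in replicate 2) and one of Ebf2 at chr14:67241997-67242351 (9.35 in replicate 2). Neither of these regions overlapped a culture peak. Hox and Hox cofactor genes had 14 at 13 of 46 (0.177% of members, 0.231% of retained peaks). Retinoic acid genes had 6 at 4 of 16 (0.0757% and 0.123%), of which 3 at the receptor gene Rarb. Notch genes had 4 at 3 of 13 (0.0504% and 0.0980%). The nuclear factor I family had 4, at Nfib and Nfix (0.0504% and 0.0402%). Cholinergic, cell cycle and erythroid genes had none, beside 0.0201%, 0.0553% and 0.00503% of retained peaks. Lists of other cell types or tissues also had members, with 13 at 5 of 14 somite and mesenchyme genes, Pax3 included. Other spinal interneuron factors had 11 at 7 of 18, and sensory and neural crest genes 6 at 5 of 10. Endothelial genes had 5 at 4 of 8, and notochord and floor plate genes 3 at 2 of 6. In this order the shares of members were 0.164%, 0.139%, 0.0757%, 0.0630% and 0.0378%. Those of retained peaks were 0.0704%, 0.108%, 0.0427%, 0.0327% and 0.0352%.

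RNA of the nearest genes was compared between E10.5 and E13.5, to see whether genes beside a region without a later peak had less RNA. In bulk samples, fewer cells of a type and less RNA per cell cannot be told apart. The E10.5 libraries held the MN factors Mnx1 (155, 159 and 262 counts scaled to library size, CPM), Lhx3 (71.6, 72.3 and 85.8) and Isl1 (156, 117 and 183), and also progenitor genes, with 25 of 28 at 5 CPM or more in every E10.5 library and a summed level of 3762 to 5107 CPM against 760 to 852 at E13.5. The E13.5 libraries carried markers of other cells. Erythroid genes summed to 2805 and 3148 CPM there and to 0.129 to 1.62 at E10.5, where 5 of 10 were at 0 in every library, and endothelial genes to 2465 and 4664 against 1.77 to 6.34. Somite and mesenchyme genes summed to 585 and 756 against 56 to 90.2. RNA at E10.5 came from brachial, thoracic and lumbar cord, and from E13.5 on from brachial and lumbar cord alone. The part of these cells, of the cord segments and of whole-cell against nuclear RNA in the changes below, those of Hox genes included, was not tested.

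The nearest genes did not move 1 way. Of the 6033 genes, 1802 passed the expression filter. Of these, 386 (21.4%) had a lower RNA level at E13.5 by edgeR's quasi-likelihood test (p under 0.001 and at least 2-fold), beside 19.4% of all 15030 genes tested. A larger number, 552 (30.6%), were higher, beside 24.5% of all genes. The median log2 change was 0.33, and 0.13 over all genes. By P21, a comparison that shares the E10.5 libraries, 582 (32.3%) were lower and 694 (38.5%) higher, beside 30.6% and 34.7% of all genes. With protein-coding start sites within 50 kb of a member, the order at P21 was the opposite, with 737 lower (36.5%) and 625 higher (30.99%). The genes nearest to a retained peak and to no member, 10326 tested, had 21.3% lower and 21.5% higher at E13.5.

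The share of genes called lower differed with the number of members by one assignment and not by the other. By nearest start site the share lower at E13.5 was 20.5% with 1 member, 23.6% with 2 and 25.8% with 3 or more (41 of 159), and the share higher at these numbers of members was 30.7%, 32.5% and 26.4%. With protein-coding start sites alone the shares were 20.3%, 19.2%, 19.7% and 21.5% lower at 1, 2, 3 to 4, and 5 or more members. The 331 tested genes nearest to a member found in both DIV0 libraries had 99 lower (29.9%) and 76 higher (23.0%) at E13.5, and 38.7% lower and 27.2% higher at P21. These shares are descriptions with no test.

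Among the named genes, the 5 with the largest falls were proneural and progenitor factors. Neurog2 was at 139, 190 and 128 CPM at E10.5 and 1.59 and 2.16 at E13.5, a log2 change of -6.28 ± 0.36 (SE, adjusted p = 4.2e-10, edgeR). Neurod4 was at 122, 144 and 82.7 and then 1.11 and 3.79 (-5.40 ± 0.36), and Pax6 at 90.2, 119.5 and 55.4 and then 5.08 and 4.01 (-4.30 ± 0.38). For these genes no E13.5 library reached any E10.5 library. Dbx1 (-5.30), Neurog1 (-5.22) and Pax3 (-3.00) fell likewise, though Dbx1 did not pass with DESeq2. In the whole list, beside 19.4% of all genes, 22 of 25 tested genes were lower and 1, Cbfa2t3, a corepressor gene with 2 members, was higher (8.41 to 13.9 CPM and then 24.6 and 30.8), a call lost without E13.5 replicate 2 (log2 change 1.29 with it and 1.11 without).

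Guidance genes went both ways. Cxcr4, the chemokine receptor, fell from 94.0, 119 and 119 CPM to 9.04 and 21.7 (log2 change -2.81 ± 0.35, adjusted p = 2.6e-06, edgeR), and Efna5 from 61.8, 53.0 and 65.5 to 15.9 and 10.6 (-2.20 ± 0.24). Epha7, with 24.6, 25.2 and 10.9 CPM at E10.5 and 76.5 and 54.3 at E13.5, rose by 1.68 ± 0.26, and Epha5 (1.13), Sema3a (1.36) and the adhesion gene Chl1 (2.72) rose too. Without E13.5 replicate 1 the values of Epha5 and Sema3a were 0.67 and 0.52 and did not pass, and those of Epha5, Epha7, Sema3a, Cbfa2t3 and Meis2 did not pass when only E10.5 and E13.5 libraries were fitted. Robo1 was at 252, 136 and 280 CPM and then 236 and 189, with a log2 change of -0.07 ± 0.21 (adjusted p = 0.78, edgeR), and its libraries overlapped between the ages. Robo2 (-0.29), Dcc (-0.77), Dcx (-0.02, with 2 masked members) and Sema3c (0.44) did not pass either. By P21 the log2 changes of Robo1, Robo2 and Dcc, -1.09, -1.02 and -1.56, passed, those of Robo1 and Robo2 just beyond the 2-fold limit. The call of Robo1 was lost without E10.5 replicate 1 (-0.99) or 3 (-0.87), and that of Robo2 without E10.5 replicate 2 (-0.82) or P21 replicate 3 (-0.98). Without E10.5 replicate 2, Dcc passed at E13.5 (-1.07). Beside 19.4% lower and 24.5% higher among all genes tested, 10 of the 34 genes on the list were lower and 5 higher at E13.5. Of the 25 nearest to a member by protein-coding start site, 8 were lower and 5 higher.

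Other genes with many members also diverged. Ptprd, with 7, rose from 166, 132 and 114 CPM to 528 and 378 (log2 change 1.72 ± 0.17, adjusted p = 5.7e-08, edgeR), and Palld, an actin-bundling protein gene with 7, fell from 122, 141 and 103 to 19.8 and 23.5 (-2.48 ± 0.23). Sox6, with 6, was at 29.6 to 40.4 CPM and then 23.2 and 21.04 (-0.73, not passed). Meis2, a Hox cofactor gene, fell by 1.87 on the log2 scale, and Rarb, at 47.7 to 54.4 CPM and then 34.1 and 22.01 (-0.88), did not pass, but did without E13.5 replicate 1 (-1.23). Jag1, at 120 to 134 CPM and then 46.5 and 109 (-0.70), did not pass, but did without E13.5 replicate 2 (-1.45). Lmo3 (-0.20) and Foxn2 (-0.03) did not pass. Beside 19.4% of all genes tested, 28 of 37 tested genes of the Hox and cofactor list were lower and 8 of 11 of the MN selector list. Of those nearest to a member by protein-coding start site, 10 of 13 and 3 of 6 were lower.

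The nuclear factor I genes beside members were higher after E10.5. Nfib was at 16.1, 4.27 and 16.2 CPM at E10.5 and 212 and 206 at E13.5, a log2 change of 4.11 ± 0.31 (adjusted p = 4.2e-09, edgeR), and Nfix was listed at 0 in all 3 E10.5 libraries and at 11.4 and 5.65 CPM at E13.5. All 4 family members passed as higher at E13.5, beside 24.5% of all genes tested. Flt1, an endothelial receptor gene with 2 members, was at 0 to 0.149 CPM and then 254 and 524, together with the other endothelial markers. Dnah7c, a dynein gene, was at 0.129 to 0.149 CPM and then 1.27 and 2.01. Other genes with members were low at E10.5 and none of them was tested: Lhx9 was at 0.149 to 0.885 CPM, T at 0.295 to 0.517, Gata3 at 1.34 to 3.10, Sim1 at 0.259 to 3.39, Dbx2 at 2.38 to 3.69, Slc25a21 at 0.149 to 1.03 and Gm11232 at 0.148 to 0.388. The pseudogenes and noncoding genes among the named genes, Gm9267, Gm48156, Gm5040, Gm7004, Gm26255, Gm44909, AC158763.1, 4930500H12Rik and 4931413I07Rik, were at or under 0.149 CPM in every E10.5 library.

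**Figure D5:**
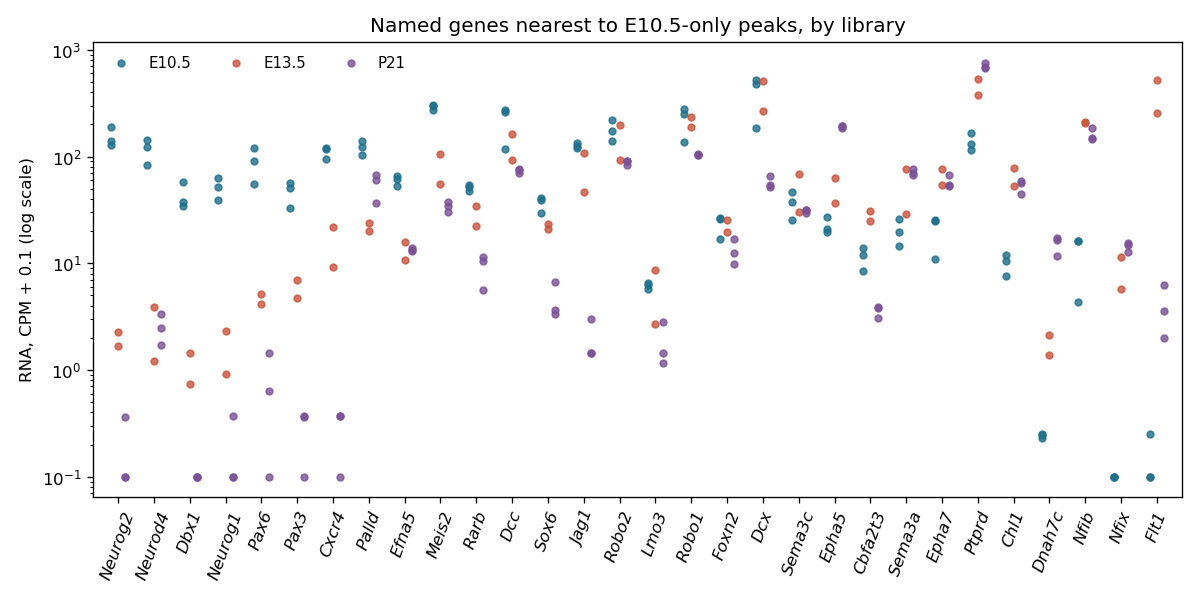
RNA level of the tested named genes, as CPM + 0.1 on a log scale, in each library of E10.5 (blue), E13.5 (red) and P21 (purple). Genes are ordered by their log2 change from E10.5 to E13.5. Of them 10 were lower and 10 higher at E13.5, beside 19.4% and 24.5% of all genes tested. The proneural genes are at the left and the nuclear factor I genes and Flt1 at the right.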

How the data were processed

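ATAC-seq peak lists came from 22 libraries and RNA-seq tables from 18 in vivo libraries. The authors aligned ATAC-seq reads to mm10 with BWA, removed duplicates, kept proper pairs and called peaks per library with MACS2 2.2.7.1 at p of 0.01 with several summits per peak; the deposited fold enrichment (a ratio over local background) and -log10 p and q values were used as given. Depth is unknown for peaks, and peak number stands in its place. Expected counts per gene were deposited by the authors from STAR 2.5.2b and RSEM 1.3.0, and totalled 3820957 to 12731227 per library; they were rounded to whole numbers here. The authors' culture RNA tables were not used. Labels name replicates only, so p-values measure the spread between pooled samples, which may be partly technical.

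Rows of the same interval were merged by the highest -log10 p. Overlap needed 1 bp and was checked with bedtools 2.31.1. Start sites were all transcripts of GENCODE vM21, and 6011 of the 6033 nearest genes were matched to the RNA tables by identifier. Sequence came from RefSeq GRCm38.p6, whose lower case marks repeats. Motifs were searched within 100 bp of the summit on both strands, and the search and the tests were tested on simulated data. Intervals cover counting error only. RNA was tested with edgeR 4.0.16 (quasi-likelihood, TMM, genes kept at 5 CPM throughout some age, 1 coefficient per age, Benjamini-Hochberg adjustment over 15030 genes); CPM values carry the TMM factors. DESeq2 1.42.0 was an alternative. Named genes were the 12 with most members, listed genes with 2 or more and those nearest to the 10 highest members; named regions were these 10 and up to 3 per list. Some items are not reported here. The regions and lists were chosen with earlier results of these data known. Figures used matplotlib 3.10.9.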

Additional observations from a re-analysis of the deposited data

How the results depend on the processing

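The number of regions moved with the calls of both the E10.5 and the later libraries: it was 3054 when both E10.5 libraries had to reach a -log10 p of 5, 12506 when only the 80000 highest peaks of each later library counted, and 7970 to 29019 when 1 library was left out, the largest without E10.5 replicate 1 (27360) or 2 (29019). The distal share was 91.5%, 86.0% and 86.8 to 89.1% in these 3 cases, 90.4% with no later peak within 500 bp, 87.7% with later peaks of -log10 p of 5 or more, 93.9% from 1 kb, 78.4% from 5 kb, 93.4% from protein-coding start sites and 86.6% without masked members. The share with CCTTTGT was 13.7% over intervals of replicate 1, 13.9% when the other replicate covered at least 50% of the interval, 16.1% at the -log10 p of 5, 8.64% within 50 bp and 17.5% without masked members. The gap between members and retained peaks in culture was -62.3 to -61.5 percentage points when 1 culture library was left out, and -71.1 to -48.2 over the other alternatives, the ends being the -log10 p of 5 in both E10.5 libraries and the 50000 highest culture peaks.

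With only the compared ages fitted, 246 nearest genes were lower and 344 higher at E13.5. For refitted counts, here and below, the share over all genes is not given. Protein-coding start sites at any distance gave 560 lower (20.1%) and 866 higher (31.1%) at E13.5, beside 19.4% and 24.5% of all genes. At P21 they gave 910 lower (32.7%) and 970 higher (34.8%), beside 30.6% and 34.7%. Those within 50 kb gave 482 (23.9%) and 570 (28.3%) at E13.5 and 737 (36.5%) and 625 (30.99%) at P21. Leaving out 1 RNA library gave 334 to 402 lower and 526 to 593 higher at E13.5, and 552 to 582 lower and 678 to 687 higher at P21. With the replicate number as a block the counts were 376 and 545 at E13.5 and 577 and 689 at P21. The numbers are shared names of separately pooled animals (correlation of deviations 0.11 and 0.15 over 2 pairs). Protein-coding start sites assign other genes (2786 tested against 1802), and the cause of the other changes was not tested. Of 709 values of named genes under alternatives, 681 kept their call, 18 lost it, 10 gained it and 0 changed direction. Leaving out masked members, assigning genes by protein-coding start sites at any distance, and every alternative at P21 were chosen after seeing the data. Peak files give no read depth, so a region without a later peak is one not called at that depth.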
